A study of Mus musculus with 2 samples.

Results

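Genes of 6 enzymes that supply NADPH, or that belong to the pathway supplying it, were followed through mouse bone marrow cultures exposed to heme. They were chosen by name from the 26124 genes of the deposited matrices, as malic enzyme and isocitrate dehydrogenase of the cytosol and the listed enzymes of the pentose phosphate pathway. All 6 genes were found in both matrices. The cells were lineage-depleted bone marrow progenitors of C57BL/6 mice aged 8 to 10 weeks. All cultures received GM-CSF at 20 ng/ml, which drives such progenitors towards granulocytes, macrophages and dendritic cells. On day 3 the heme group received 300 µM heme bound to albumin, and the control group received albumin alone. Each group was 1 droplet library of 3′ transcript ends counted by unique molecular identifiers (UMIs), and each library pooled 5 cultures marked with DNA-tagged antibodies as days 0, 3, 4, 5 and 7. The labels name harvests on days 4, 5 and 7, while the design text names an exposure time in place of day 5 that differs from it, so culture days are used.

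With 1 library a group there was no replicate, and no test across samples was possible. A level is the UMIs of a gene as counts per 1000000 gene UMIs (CPM), summed over the cells of a culture or gate. A ratio is given with its exact 95% interval for a pair of Poisson counts, which covers counting error only. A gene was called at a ratio of 2 or more, or of 0.5 or less. The share of all genes called is the background, taken over genes with a mean of at least 10 CPM in the 2 sums compared. Cultures of days 0 and 3 had not been exposed, so their ratios describe how far the libraries differed without added heme. These cultures were pooled with exposed ones, so free RNA or miscalled cells may add to their values, which was not tested. Cells kept numbered 598 to 2715 a culture, with 6189203 to 34647365 gene UMIs. The day 0 control culture was the smallest, with 598 of 1716 cells of a single hashtag inside the limits. The libraries shared 112 barcodes, of which 33 were kept as cells in both, and leaving these out moved no value beyond its counting interval.

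NADPH is the electron donor that cells use for reduction, for lipid synthesis and for the respiratory burst of phagocytes. It renews glutathione and thioredoxin, and it feeds the breakdown of heme through cytochrome P450 reductase and biliverdin reductase. Glucose-6-phosphate dehydrogenase (G6pdx) catalyses the entry step of the pentose phosphate pathway, and 6-phosphogluconate dehydrogenase (Pgd) the next NADPH-forming step. Transaldolase (Taldo1) and transketolase (Tkt) form no NADPH themselves, and return the sugar phosphates to glycolysis. Malic enzyme (Me1) and isocitrate dehydrogenase (Idh1) form NADPH in the cytosol from malate and isocitrate.

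On GRCm38, in the GENCODE M21 annotation, the protein-coding gene Me1 lies on chromosome 9 at 86581371–86695953 on the minus strand. G6pdx lies on chromosome X at 74409483–74429194 on the minus strand, and Pgd on chromosome 4 at 149149991–149166771 on the minus strand. Taldo1 lies on chromosome 7 at 141392199–141402968 on the plus strand, Tkt on chromosome 14 at 30548359–30574720 on the plus strand and Idh1 on chromosome 1 at 65158616–65186500 on the minus strand. G6pdx overlaps Ikbkg on the opposite strand. Me1 overlaps an unclassified transcript, Gm38230, on its own strand and an antisense transcript, A330041J22Rik. How the counting treated such overlaps is not given in the sources used here. The last 400 bases of the transcripts matched no other gene over at least 91 bases at 95% identity or more.

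The promoter windows of the members were read for the antioxidant response element, the site that NRF2 binds, because both Me1 and the pathway dehydrogenases are known targets of this factor. The windows are those of RefSeq on GRCm38.p6, from 250 bases before to 50 after a start site. The element was searched as TGACNNNGC on both strands, and 12.4% of all 32851 windows held it, against 3 of the 9 windows of the members. Each match is shown with 10 bases on either side, in the direction of the gene, with the match in capitals.
Me1, chr9:86695902-86695930, minus strand: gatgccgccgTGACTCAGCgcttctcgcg
G6pdx, chrX:74428919-74428947, minus strand: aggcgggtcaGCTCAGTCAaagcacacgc
Pgd, chr4:149166061-149166089, minus strand: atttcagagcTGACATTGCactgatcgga
The match begins 6 bases before a start site in Me1 and 57 bases before it in G6pdx, where it reads on the opposite strand. The GENCODE spans of both genes begin further upstream than these start sites, so both matches lie inside those spans. In Pgd the match begins 3 bases after the second of its 2 listed start sites. That site lies inside the gene, and the bases just before it end in a run of T and then gtcatttcag, as intron ends do. The match in Pgd may thus lie at the start of an inner exon and not in a promoter, which was not tested. This window of Pgd is among those counted above as holding the element. The other window of Me1, the other window of Pgd and the windows of Taldo1, Tkt and Idh1 did not hold these letters. These are matches of letters only, and binding was not measured.

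Me1 stood apart from the other members by the size of its difference between libraries. The level of Me1 in the control library was 0.323, 1.39, 1.73, 1.54 and 0.779 CPM on days 0, 3, 4, 5 and 7. In the heme library it was 1.21, 2.59, 11.9, 23.4 and 56.1 CPM on these days. All 3 cultures harvested after heme addition lay above each of the other 7, and those 7 never passed 2.59 CPM. The ratio of heme to control was 1.86 (interval 1.26 to 2.76), 6.90 (5.04 to 9.64), 15.2 (11.0 to 21.6) and 72.0 (49.3 to 109.7) on days 3, 4, 5 and 7. On day 7 this rested on 1513 UMIs in the heme culture and 27 in the control culture, and 7 of the 7727 genes tested had a higher ratio. Me1 met the limit of 10 CPM through its heme level alone, so this rank depends in part on that limit. The day 0 ratio of 3.75 rested on 16 UMIs against 2, and its interval of 0.883 to 33.7 held 1. Within the heme library, Me1 on day 7 was 21.7 times its day 3 level (17.4 to 27.3).

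Pgd and G6pdx, the NADPH-forming dehydrogenases of the pentose phosphate pathway, were higher in the heme library on every day, except that G6pdx on day 0 turned with TMM factors and DESeq2 size factors. Both had larger ratios after heme addition than before it, although for G6pdx the interval of day 5 overlapped those of days 0 and 3. The level of Pgd in the control library was 77.6, 261.8, 283.9, 241.8 and 191.8 CPM on days 0, 3, 4, 5 and 7. The heme library held it at 132.4, 368.1, 565.0, 523.1 and 582.1 CPM on these days. The 3 exposed cultures were the highest of all 10. The ratio of Pgd was 1.71 (1.54 to 1.89) on day 0, and 1.41 (1.37 to 1.45), 1.99 (1.94 to 2.05), 2.16 (2.10 to 2.23) and 3.03 (2.95 to 3.12) on days 3, 4, 5 and 7.

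The level of G6pdx in the control library was 40.4, 116.6, 110.5, 77.2 and 51.1 CPM on days 0, 3, 4, 5 and 7. In the heme library it was 51.2, 164.2, 214.9, 119.3 and 119.9 CPM on these days. G6pdx was thus highest 1 day after heme addition, and its levels on days 5 and 7 lay below the day 3 level of the same library. Its ratio was 1.27 (1.09 to 1.47) on day 0, and 1.41 (1.35 to 1.47), 1.94 (1.86 to 2.03), 1.55 (1.46 to 1.64) and 2.35 (2.22 to 2.49) on days 3, 4, 5 and 7. The control level on day 7 was 0.438 of the control level on day 3 (0.413 to 0.464), whereas the same ratio in the heme library was 0.730 (0.699 to 0.763).

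The enzymes of the non-oxidative branch differed from each other. The level of Taldo1 in the control library was 466.1, 555.1, 489.9, 455.5 and 398.5 CPM on days 0, 3, 4, 5 and 7. Heme cultures of the same days held it at 348.1, 498.0, 644.8, 758.5 and 741.9 CPM. Taldo1 was thus lower in the heme library before the addition and higher after it. Its ratio was 0.747 (0.713 to 0.783) on day 0, and 0.897 (0.878 to 0.917), 1.32 (1.29 to 1.35), 1.67 (1.63 to 1.71) and 1.86 (1.82 to 1.90) on days 3, 4, 5 and 7.

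The level of Tkt in the control library was 472.6, 615.1, 612.3, 495.3 and 371.3 CPM on days 0, 3, 4, 5 and 7. In the heme library it was 601.0, 870.7, 885.6, 605.8 and 559.3 CPM on these days. The libraries already differed before heme addition, by a ratio of 1.27 (1.22 to 1.33) on day 0, which turned with TMM factors and DESeq2 size factors, and 1.42 (1.39 to 1.44) on day 3, and the later ratios were 1.45 (1.42 to 1.48), 1.22 (1.19 to 1.25) and 1.51 (1.47 to 1.54). The ratio after heme addition thus lay on both sides of the ratios before it.

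The level of Idh1 in the control library was 29.4, 74.3, 61.8, 67.0 and 131.0 CPM on days 0, 3, 4, 5 and 7. Heme cultures of the same days held it at 53.1, 101.4, 82.7, 98.9 and 143.5 CPM. Both libraries reached their highest level on day 7, where the ratio was 1.10 (1.05 to 1.14). It was 1.81 (1.53 to 2.14) and 1.36 (1.29 to 1.44) on days 0 and 3, before heme addition, and 1.34 (1.25 to 1.43) and 1.48 (1.38 to 1.58) on days 4 and 5. The direction on day 7 depended on the scaling. The log2 ratio was 0.13 on totals, -0.10 with TMM factors and -0.13 with DESeq2 size factors.

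**Figure D1:**
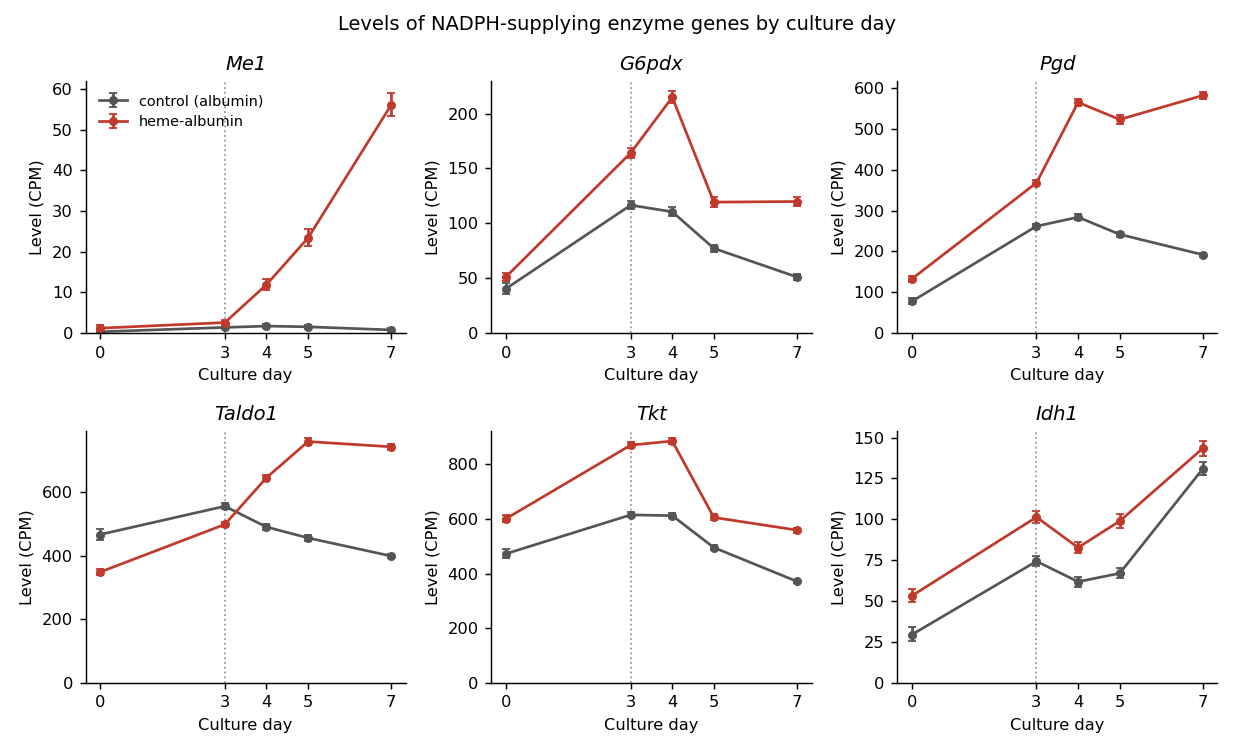
Level of each member in CPM of all gene UMIs (vertical axis, from 0) by culture day, with control cells in grey and heme cells in red. Bars are 95% Poisson intervals of 1 culture each and the dotted line marks the addition on day 3. Me1 in the heme library goes from 2.59 CPM on day 3 to 56.1 on day 7, while its control cultures stay at or below 1.73.

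The members were also ordered by level over the 10 cultures. For Me1 the order ran down from heme day 7 through heme days 5, 4 and 3 to control day 4, and each of these steps was wider than its counting interval. The 5 steps below control day 4 were not. All 9 steps of Pgd were separated by counting error. For G6pdx 3 of 9 steps were not separated, namely heme day 7 from heme day 5, heme day 5 from control day 3, and heme day 0 from control day 7. For Tkt 4 of 9 steps, for Taldo1 2 and for Idh1 1 were not. The widest range between the highest and the lowest culture was that of Me1, at 173.7-fold, which rests on 2 UMIs in control day 0 (0.0391 to 1.17 CPM), and the narrowest was that of Taldo1, at 2.18-fold.

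Counts of members past the 2-fold limit were read against the share of all genes past it. Of the 6 members, 5 passed the limit on low levels on days 0, 3 and 4. Me1 was below the limit on those days and passed it on days 5 and 7 through the heme culture alone. On day 0, 1 of 6 members, Me1, was higher by 2-fold or more, where 12.2% of all genes were, and on day 3 none was, where 2.98% of genes were. On day 4, 1 member, Me1, was past the limit against 4.38% of genes, with Pgd at 1.99 and G6pdx at 1.94 just inside it. On day 5, 2 members, Me1 and Pgd, were past it against 4.74% of genes. On day 7, 3 members, Me1, Pgd and G6pdx, were past it against 11.4% of genes. Relative to the median of all genes, G6pdx was at 1.94 on day 7, just inside the limit. No member was lower by 2-fold or more in whole cultures on days 0, 3, 4, 5 and 7, where 1.22%, 0.135%, 2.07%, 2.07% and 4.44% of all genes were.

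The median log2 ratio of the 6 members was 0.56, 0.49, 0.75, 0.68 and 1.06 on days 0, 3, 4, 5 and 7. The median over all genes tested was 0.31, 0.25, 0.23, 0.21 and 0.28, so the heme library lay above the control library for most genes on each day. Relative to that median, the log2 ratio on day 7 was 5.89 for Me1, 1.32 for Pgd, 0.96 for G6pdx, 0.62 for Taldo1, 0.32 for Tkt and -0.14 for Idh1.

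**Figure D2:**
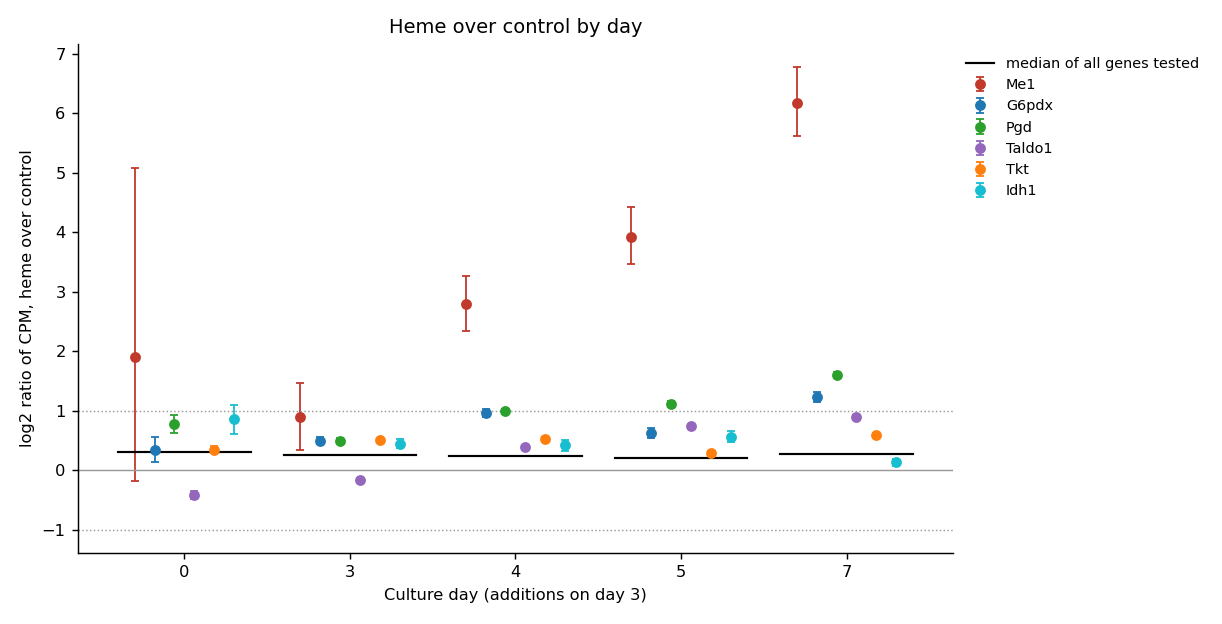
Log2 ratio of CPM, heme over control, for each member by culture day, with exact 95% counting intervals. Black lines are the median over all genes tested on that day, dotted lines the 2-fold limits and the grey line a ratio of 1. Me1 lies at 2.79, 3.93 and 6.17 on days 4, 5 and 7, above all other members.

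Within each library, day 7 was set against day 3. In the control library 1 of 6 members, G6pdx, was lower by 2-fold or more, where 7.42% of all genes were lower and 9.9% higher by that much. Of the other 5, Me1, Pgd, Taldo1 and Tkt had ratios from 0.559 to 0.733, and Idh1 had a ratio of 1.76 (1.67 to 1.86). For the heme library 1 member, Me1, which passed the limit on low levels through day 7 alone, was higher by 2-fold or more, where 8.6% of genes were higher and 6.84% lower. There Pgd had a ratio of 1.58 (1.54 to 1.62), Taldo1 of 1.49 (1.46 to 1.52), Idh1 of 1.42 (1.35 to 1.48) and Tkt of 0.642 (0.630 to 0.655).

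To see which cells held these transcripts, cells were gated on raw UMIs of Camp, a granule gene of immature neutrophils, Marco, a scavenger receptor of macrophages, and Ccr7, the homing receptor of mature dendritic cells. The gates required 20 Camp, 3 Marco or 3 Ccr7 UMIs, with the other 2 genes below their limits, and cells below all 3 limits are called ungated. Gates with under 20 cells give no value. On day 7 the heme culture held 145 cells in the Camp gate, 718 in the Marco gate, 37 in the Ccr7 gate and 1107 ungated. The control culture held 11, 12, 500 and 2191. The Marco gate held at most 12 control cells on any day, so heme and control cells could not be compared within it, and there exposure and cell type cannot be told apart.

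Marker genes were summed in each gate of the heme culture on day 7 as a check, without the gene that set the gate, which leaves 7 a list. The neutrophil markers came to 158221 CPM in the Camp gate and to 1214 to 2108 CPM in the Ccr7 and Marco gates. The macrophage markers came to 1145 CPM in the Marco gate and to 36.8 to 151.0 CPM in the Camp and Ccr7 gates, but C1qa was at 1.85 CPM in the Marco gate, so that this defining marker was nearly absent. The dendritic cell markers came to 5350 CPM in the Ccr7 gate and to 79.3 to 279.1 CPM in the other 2 gates, with Flt3 at 0 to 1.84 CPM. Ungated cells are a mixture that differed between the libraries. They held 19003 CPM of neutrophil, 655.2 of macrophage and 422.5 of dendritic cell markers in the heme culture, against 2543, 683.9 and 2180 CPM in the control culture.

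Me1 was highest in the Marco gate on day 7. On day 5, when this gate held 28 heme cells, Me1 was at 42.2 CPM there (25.8 to 65.2). The Ccr7 gate of that culture was at 38.1 CPM (29.0 to 49.0), and these intervals overlapped. In the heme culture on day 7 its level was 81.7 CPM in the Marco gate, 39.6 in ungated cells, 27.6 in the Ccr7 gate and 7.61 in the Camp gate. The step from ungated cells to the Ccr7 gate lay within counting error, and the other steps did not. In the control culture its level was 1.83 CPM in the Ccr7 gate and 0.540 in ungated cells. The Marco gate supplied 64.1% of the Me1 UMIs of the heme culture, while it held 44.1% of all gene UMIs. The ratio of the Marco to the Camp gate was 10.7 (6.11 to 20.8) and that of the Marco to the Ccr7 gate 2.96 (1.78 to 5.30).

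A difference in Me1 between libraries was also counted in cells outside the Marco gate. In the Ccr7 gate the ratio of heme to control was 7.89 (1.94 to 69.2), 7.20 (3.84 to 14.7) and 15.1 (6.60 to 35.4) on days 4, 5 and 7. On day 4 this rested on 2 control UMIs. In ungated cells it was 1.78 (1.19 to 2.70), 9.05 (6.36 to 13.2), 19.0 (12.6 to 29.7) and 73.3 (44.0 to 132.0) on days 3, 4, 5 and 7. In the Camp gate the levels were lower, at 0.642 CPM in control and 3.45 in heme cells on day 4, a ratio of 5.37 (2.44 to 14.0). On day 5 they were 0.248 and 2.34 CPM, from 1 and 5 UMIs, with an interval of 1.05 to 444.9. On day 3 the control cells of this gate held no Me1 UMI and the heme cells 18, or 1.19 CPM, and the exact interval of the ratio began at 2.79. Free RNA from other cells of the same library may add to these values, above all to the low ones of the Camp gate, which was not tested.

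The share of cells with a Me1 UMI was compared after thinning each cell to 3000 UMIs, with exact binomial intervals. In the heme culture on day 7 the share was 22.3% (19.3 to 25.5) of 717 Marco gated cells, 10.2% (8.42 to 12.3) of 997 ungated cells, 5.41% (0.661 to 18.2) of 37 Ccr7 gated cells and 2.78% (0.762 to 6.96) of 144 Camp gated cells. Thinning left out 1, 110, 0 and 1 cells. The unthinned shares were 69.4%, 29.3%, 32.4% and 7.59%, at median depths of 17114.5, 10643, 13512 and 9100 UMIs. An equal Me1 level in all Marco gated cells would give 21.7% at this depth, against the 22.3% seen, and the most Me1 UMIs in any cell was 7. The level of that gate was thus spread over its cells and did not rest on a few. In the control culture on day 7 the thinned share was 0.402% (0.0487 to 1.44) of Ccr7 gated cells and 0.198% (0.0539 to 0.506) of ungated cells.

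**Figure D3:**
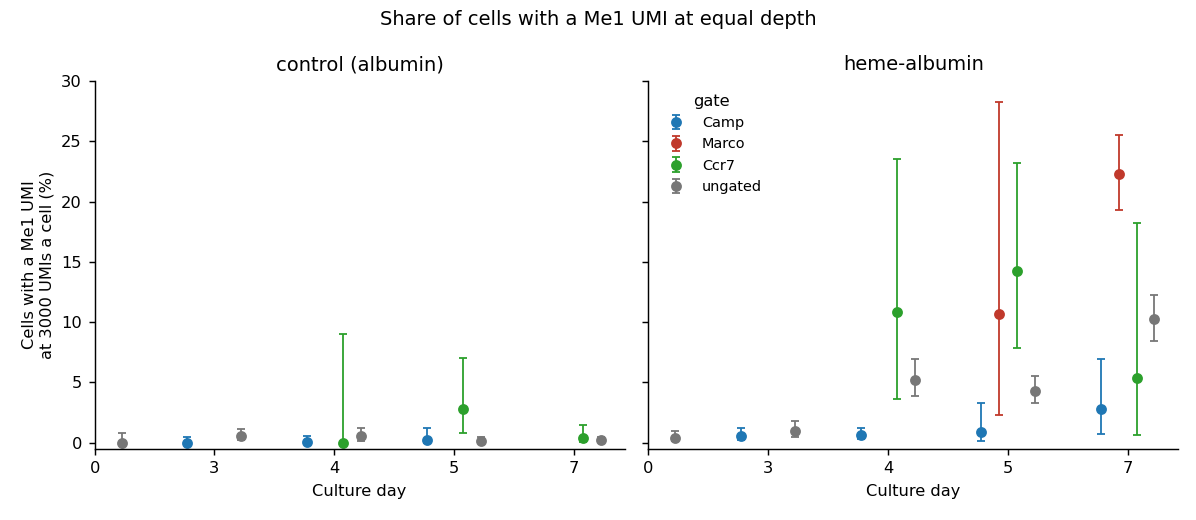
Share of cells with a Me1 UMI (vertical axis, percent) by culture day, after thinning each cell to 3000 UMIs, with control cells on the left and heme cells on the right. Colours mark the gates, bars are exact 95% binomial intervals, and gates with under 20 cells are not drawn. Marco gated heme cells on day 7 stand at 22.3%, above the 10.2% of ungated cells.

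Pgd and G6pdx differed between libraries in the Ccr7 gate as well. On day 7 the level of Pgd there was 53.0 CPM in control and 143.7 CPM in heme cells, a ratio of 2.71 (2.09 to 3.47). G6pdx was at 21.8 CPM in control and 53.4 CPM in heme cells, a ratio of 2.45 (1.59 to 3.67). Taldo1 had a ratio of 1.21 (1.04 to 1.39), which turned below 1 with TMM factors, DESeq2 size factors and the median of all genes. Idh1 had a ratio of 0.967 (0.716 to 1.28) and Tkt of 0.838 (0.691 to 1.01), and both intervals held 1. With 37 heme cells this gate carried 29 UMIs of G6pdx and 78 of Pgd. TMM factors left 1 of the 3 members of this gate past the limit.

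In the Ccr7 gate, and in ungated cells on days 4, 5 and 7, Me1 passed the limit on low levels through the heme cells alone, so its place in the counts of these gates was given by its heme level. By gate, 2 of 6 members were higher by 2-fold or more in the Ccr7 gate on day 4, Me1 and G6pdx, where 14.1% of genes were, and 3 on days 5 and 7, with Pgd added, where 9.92% and 20.1% of genes were. In the Camp gate 1 member, Me1, was past the limit on each of days 3, 4 and 5, where 7.36%, 7.98% and 9.83% of genes were. Me1 was below the limit on low levels in that gate on all 3 days. In ungated cells 1 member, Me1, was past it on day 0 and none on day 3, where 12.2% and 1.85% of genes were. There 2 members, Me1 and Pgd, were past it on days 4 and 5, where 6.96% and 6.31% of genes were. On day 7 the 3 members Me1, Pgd and G6pdx were, where 8.81% of genes were. G6pdx was close to the limit there, at 57.5 CPM in control and 118.9 CPM in heme cells.

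In the Camp gate on day 4, which held 1040 control and 1436 heme cells, Pgd had a ratio of 1.80 (1.73 to 1.88) and G6pdx of 1.74 (1.64 to 1.84). Idh1 was at 1.43 (1.29 to 1.59), Tkt at 1.35 (1.31 to 1.39) and Taldo1 at 1.28 (1.23 to 1.32). The median log2 ratio of all genes in that gate was 0.40, or close to the ratios of Tkt and Taldo1, whose direction in this gate turned with DESeq2 size factors. On day 3, before exposure, the same gate gave 1.45 (1.38 to 1.52) for Pgd and 1.39 (1.30 to 1.48) for G6pdx.

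The gates of the heme culture on day 7 differed in which members they held most of. Tkt and G6pdx were highest in the Camp gate, with Tkt at 1102 CPM against 510.1 in the Marco gate and G6pdx at 229.6 against 108.7. Their ratios of Marco to Camp were 0.463 (0.439 to 0.489) and 0.473 (0.421 to 0.533). Pgd was at 621.0 CPM in the Marco and 513.8 in the Camp gate, an order that turned with DESeq2 size factors and the median of all genes. Taldo1 was at 782.7 and 572.2, and Idh1 at 160.9 and 99.6. On day 5, with 28 Marco gated cells, Taldo1 was lower in the Marco gate, at 627.2 CPM against 748.1 in the Camp gate. Idh1 was again higher there, at 149.9 against 83.1. Of the 6 members on day 7, 1 was higher by 2-fold or more in the Marco gate than in the Camp gate, where 23.1% of genes were. This was Me1, which passed the limit on low levels through the Marco gate alone. The 2 members Tkt and G6pdx were lower, where 11.2% of genes were.

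Against the Ccr7 gate on day 7, 5 of 6 members were higher by 2-fold or more in the Marco gate, where 22.1% of genes were. None was lower, where 12.5% were. The ratios were 4.32 (3.46 to 5.48) for Pgd, 2.29 (1.91 to 2.76) for Tkt, 2.04 (1.41 to 3.05) for G6pdx and 2.02 (1.76 to 2.33) for Taldo1, while Idh1 was at 1.65 (1.25 to 2.21). G6pdx and Taldo1 were close to the limit, and the count was 3 with DESeq2 size factors and 2 relative to the median of all genes.

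Camp gated cells were richer in the pentose phosphate enzymes than Ccr7 gated cells in both libraries. On day 5, 3 members, G6pdx, Pgd and Tkt, were higher by 2-fold or more in the Camp gate of the control library, where 17.7% of genes were. Heme cells had 4, with Taldo1 added, where 17.2% of genes were. The ratio of Camp to Ccr7 was 6.66 (4.86 to 9.36) in control and 4.13 (3.21 to 5.39) in heme cells for G6pdx, and 6.40 (5.27 to 7.84) and 3.62 (3.13 to 4.20) for Pgd. Me1 went the other way, at 38.1 CPM in the Ccr7 gate and 2.34 in the Camp gate of the heme library. Idh1 had Camp to Ccr7 ratios of 0.629 (0.525 to 0.754) in control and 0.720 (0.582 to 0.890) in heme cells.

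**Figure D4:**
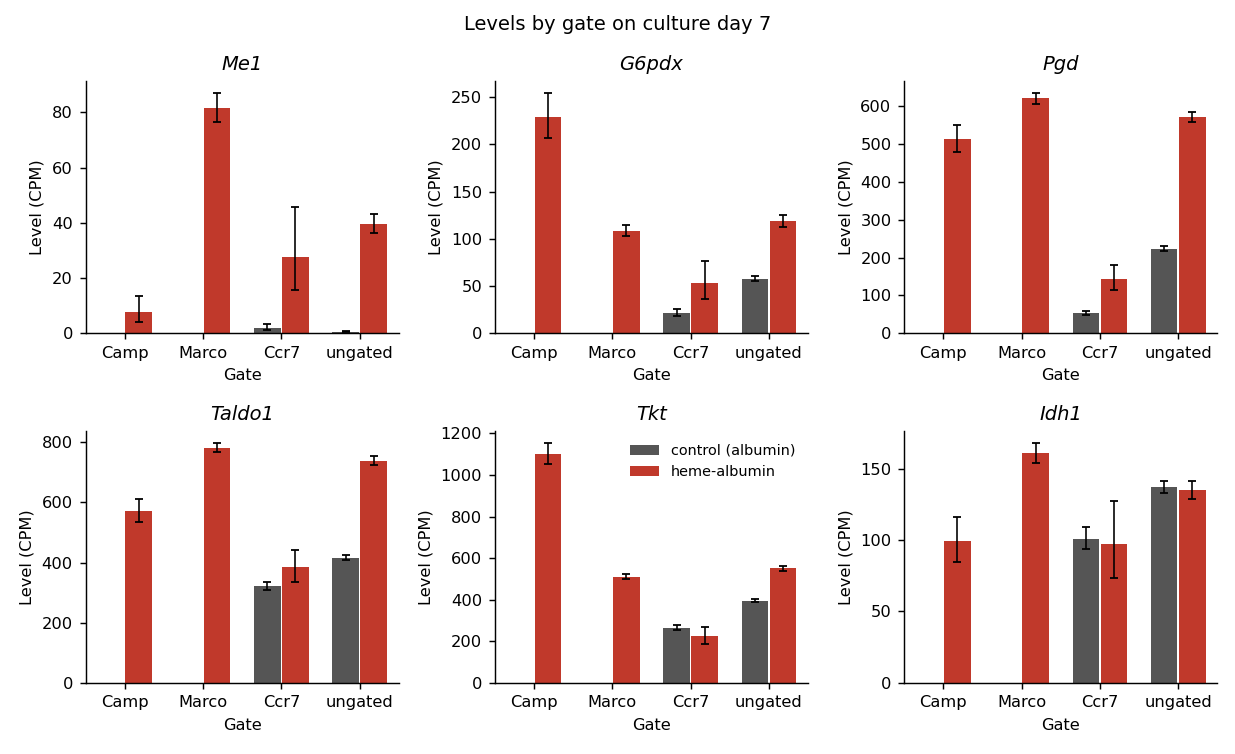
Level of each member on culture day 7 by gate (CPM of all gene UMIs in the gate, from 0), with control cells in grey and heme cells in red. Bars end in 95% Poisson intervals, and gates with under 20 cells, which are the control Camp and Marco gates, are empty. On this scale Me1, Pgd, Taldo1 and Idh1 are highest in the Marco gate of heme cells (Pgd turns with DESeq2 size factors), and Tkt and G6pdx in the Camp gate.

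The make-up of the cultures moved with these levels. The Camp gate held 49.4% of control and 57.9% of heme cells on day 4, and 0.405% and 7.21% on day 7. Summed neutrophil markers on day 7 were 2770 CPM in the control and 20192 CPM in the heme culture. The 8 macrophage markers were 576.1 and 1347 CPM, or 572.5 and 825.1 CPM without Marco. The highest of them was C1qb at 210.1 CPM in the control and Marco at 521.7 CPM in the heme culture, where C1qa was at 1.22. The 8 dendritic cell markers were 3030 and 469.0 CPM. On day 0 the erythroid markers came to 2880 CPM in the control and 1084 CPM in the heme culture. Progenitor markers of granulocytes and monocytes came to 3759 and 5717 CPM. The macrophage markers then came to 29.1 CPM, or 28.9 without Marco, in the control and 80.4, or 72.3 without Marco, in the heme culture. The part of these differences in the ratios of the members was not tested.

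Other genes that form or use NADPH were described from fixed lists, on day 7 and over genes with a mean of 10 CPM. Among 12 other genes of the pentose phosphate pathway 7 passed this limit. Of these 1 was higher by 2-fold or more, where 11.4% of all genes were, and it passed through the heme culture alone. This was H6pd, the glucose-6-phosphate dehydrogenase of the endoplasmic reticulum, at 3.72 CPM in control and 25.3 CPM in heme cells, a ratio of 6.81 (5.63 to 8.28). H6pd already had a ratio of 1.89 on day 3. Rbks, a ribokinase below the limit on low levels, was at 4.24 and 1.67 CPM, a ratio of 0.394 (0.275 to 0.553). Pgls, the lactonase between G6pdx and Pgd, was at 299.4 and 195.1 CPM, a ratio of 0.652 (0.630 to 0.674). On day 3 the ratios of Rbks and Pgls were already 0.648 and 0.715. The median log2 ratio of the 7 genes was 0.47, beside 0.28 for all genes.

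None of the 7 genes that passed the limit among 13 other NADPH sources was past 2-fold, and their median log2 ratio was 0.47. The NAD kinases, which make NADP from NAD, had ratios of 1.74 (1.64 to 1.84) for Nadk and 1.65 (1.40 to 1.95) for Nadk2. Idh2, the mitochondrial isocitrate dehydrogenase, was at 1.10 (1.03 to 1.19) and Me2, a mitochondrial malic enzyme, at 1.19 (1.10 to 1.28). Me3 had no UMI in either culture on day 7, where a count of 0 allows up to 3.

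All 12 reductases of the list of NADPH users passed the limit on low levels, Nqo1 and Cbr3 among them through the heme culture alone. Of the 12, 5 were higher by 2-fold or more, where 11.4% of all genes were, and none was lower. Their median log2 ratio was 0.76. Nqo1, a quinone reductase, was at 7.04 CPM in control and 87.3 CPM in heme cells, a ratio of 12.4 (10.9 to 14.2). Cbr3, a carbonyl reductase, had a ratio of 5.26 (4.61 to 6.02). The others past the limit, named after their values were seen, were Por, the cytochrome P450 reductase that passes electrons to heme oxygenase, at 3.68, Gsr, glutathione reductase, at 3.23, and Txnrd1, thioredoxin reductase, at 3.00. On day 3 the ratios of these 5 genes ran from 1.19 for Por to 1.54 for Txnrd1. Of the biliverdin reductases, Blvrb was just inside the limit at 1.95, and Blvra was at 1.09.

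Of 6 subunits of the phagocyte NADPH oxidase, 1 was higher by 2-fold or more, where 11.4% of all genes were, which is near that share. Cybb, its catalytic subunit, was at 719.8 CPM in control and 1688 CPM in heme cells, a ratio of 2.34 (2.31 to 2.38), but its ratio was already 1.93 on day 3. Rac2, its small GTPase, had a ratio of 0.699 (0.679 to 0.720), and the median log2 ratio of the 6 was 0.02. Of 12 genes of lipid synthesis, 2 were higher by 2-fold or more, also near the 11.4% of all genes, and 1 was lower, where 4.44% of all genes were. Elovl6, an elongase of fatty acids, had a ratio of 2.97 (2.63 to 3.37), Sqle, a cholesterol synthesis enzyme named after its value was seen, one of 2.45 (2.30 to 2.60), and Scd1, a desaturase of fatty acids, one of 0.385 (0.345 to 0.429). On day 3 their ratios were 1.38, 1.56 and 1.47. Acly and Fasn, which draw on cytosolic citrate and NADPH, were at 0.921 (0.880 to 0.964) and 1.24 (1.16 to 1.34).

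**Figure D5:**
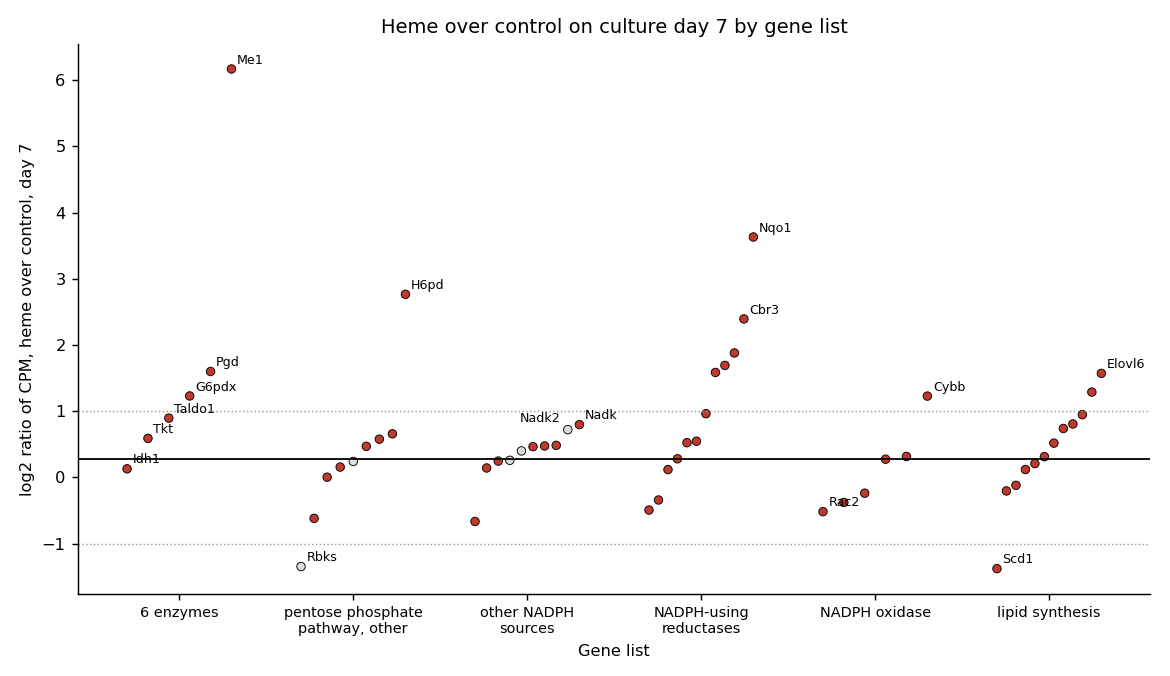
Log2 ratio of CPM, heme over control, on culture day 7 for single genes of each list with at least 20 UMIs over the 2 cultures. Grey points have a mean under 10 CPM, the black line is the median over all genes and dotted lines are the 2-fold limits. Me1 lies at 6.17, above Nqo1 at 3.63 and H6pd at 2.77.

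The genes most like each member in pattern were found by Pearson correlation of log2(CPM + 10) over the 10 cultures, among 7889 genes. The cultures share 2 libraries and a common course of days, so the values only describe. Closest to Me1 were Treml4 (r = 0.991), Spic (r = 0.990), the transcription factor of iron-recycling macrophages, and Cyp4a12a (r = 0.984). Closest to G6pdx were Pknox2, Ica1 and Alox5, the latter the 5-lipoxygenase of granulocytes, with r from 0.986 to 0.989. Closest to Pgd were Surf4, Atp6v1a and N4bp1 (r from 0.991 to 0.993). For Tkt they were Fam160a2, Mcu and Entpd5 (0.978 to 0.993), and for Idh1 Mob3b, Rab14 and Zfp703 (0.954 to 0.967). Taldo1 was closest to Htatip2, Tnfaip2 and Nqo1 (0.919 to 0.948), and so shared a quinone reductase of the list above. With TMM factors 0 to 2 of the 3 genes of each member stayed. With a pseudocount of 1 in place of 10, 1 to 3 stayed, and for Me1 only Treml4, followed by Nampt and Cat.

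Among the members themselves, Pgd and G6pdx were the most alike over the 10 cultures (r = 0.88), followed by Me1 and Taldo1 (r = 0.84) and by G6pdx and Tkt (r = 0.83). Tkt and Idh1 were the least alike (r = 0.06). Over these cultures the 6 genes did not share a single pattern.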

How the data were processed

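Gene expression was measured in 2 droplet libraries of pooled mouse bone marrow cultures, 1 a group. Values are raw UMI counts of genes in barcodes, deposited as matrices that the authors obtained from Cell Ranger (5.0.0 in the headers, 4.0.0 in the submitters' processing notes, with the genome build GRCm38.p6). The deposited hashtag calls are text from Seurat and were used as they stand. No deposited value was used from any other column.

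Cells with a single hashtag, 500 to 5000 detected genes, under 15% mitochondrial and under 30% ribosomal protein UMIs were kept. The methods word both shares the other way round. This excluded doublets and barcodes without a hashtag. Counts were summed per culture or gate and divided by all gene UMIs. The libraries held 198754588 (control) and 333481636 (heme) gene UMIs. Intervals and floors cover counting error only. TMM factors (edgeR 4.0.16) and DESeq2 1.42.0 size factors were alternatives, in R 4.3.3. No gene model was fitted, and there is no p-value. Other steps used Python 3.11.15 with scipy 1.17.1. Transcript ends were compared with blastn 2.17.0. Ratios and intervals were run on simulated Poisson counts. These hold no variation between cells, cultures or libraries, so the run checks the calculation only.

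All members were named, with the 2 genes of each list with 20 or more UMIs and the largest log2 ratio on day 7, the 3 genes most alike and, as a check, the marker genes. Pgls, Idh2, Me2, Me3, Blvra, Blvrb, Acly and Fasn were named outside this rule, as were Por, Gsr, Txnrd1 and Sqle. Members and lists were chosen with earlier results of these data known. Nnt gave no value, since its symbol stands for more than 1 row.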

Additional observations from a re-analysis of the deposited data

Results flagged for a closer look

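Taldo1 lay lower in the heme library on day 0 and higher on day 7, with log2 ratios that differed by 1.32. The difference was not tested, since each day was 1 culture a library.

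Barcodes without a hashtag, which entered no comparison, numbered 652 in the control and 1218 in the heme library, and 5 of the 6 members were higher there in the heme library. Me1 was at 4.72 CPM against 0.338 in the control library, with a ratio of 14.0 from 36 UMIs against 1 and an interval of 2.35 to 566.8. G6pdx was at 86.8 CPM (ratio 2.85, interval 2.29 to 3.60), Pgd at 188.5 CPM (3.03, 2.60 to 3.55), Tkt at 610.5 CPM (1.52, 1.43 to 1.62) and Idh1 at 38.0 CPM (2.74, 1.97 to 3.90). These barcodes carry no day, so the days behind the values cannot be told apart.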

How the results depend on the processing

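The direction of Me1 and Pgd on days 4, 5 and 7, heme over control in whole cultures, was the same under every alternative run, and 226 of the 255 counts of members or list genes stayed within 1.5 times their value. Of the other values compared, 823 stayed, 412 moved and 26 changed sign. Among ratios of members, 42 stayed, 70 moved and 7 changed sign with TMM factors. With DESeq2 size factors 43 stayed, 65 moved and 11 changed sign. Counting intervals do not cover such changes. The alternatives were all cells with a single hashtag, no limit of 5000 genes, TMM factors, DESeq2 size factors, the median of all genes, totals without mitochondrial and ribosomal protein UMIs, a mean over cells, a 1.5-fold limit, the day 3 ratio subtracted, other gates and, chosen after seeing the data, no barcode found in both libraries.

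Counts of members 2-fold or more higher moved from none, or by more than 1.5 times, as follows. Smaller moves are left out. On day 7 the count went from 3 to 2 relative to the median of all genes, where G6pdx was at 1.94. With a 1.5-fold limit the counts became 3, 1, 3, 4 and 5 on days 0, 3, 4, 5 and 7. With all single-hashtag cells, or without the limit of 5000 genes, they became 1 on day 3 and 2 on day 4. On day 5 the count became 1 with TMM factors, DESeq2 size factors, the median of all genes, a mean over cells or the day 3 ratio subtracted. In ungated cells it became 1 on day 3 with all single-hashtag cells, 1 on day 4 with TMM, DESeq2 or the median, and 1 on day 5 with TMM or a mean over cells. In the Ccr7 gate on day 7 TMM gave 1. For the Marco against the Ccr7 gate it became 3 with DESeq2, 2 relative to the median and 2 without mitochondrial and ribosomal protein UMIs. Counts of lower members became 2 for control day 7 against day 3 with a mean over cells, and 1 for the Marco against the Camp gate with all single-hashtag cells, without the limit of 5000 genes or without mitochondrial and ribosomal protein UMIs. With a limit of 20 UMIs, 1 other pentose phosphate gene was lower on day 7.

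Small log2 ratios changed sign. Idh1 on day 7 became -0.10 (TMM), -0.13 (DESeq2), -0.14 (median) and -0.32 (day 3 subtracted), and on day 4 -0.028 (day 3 subtracted). Tkt on day 5 became -0.21 with day 3 subtracted. On day 0, G6pdx became -0.040 (TMM) and -0.034 (DESeq2), Tkt -0.034 and -0.028, and in ungated cells G6pdx -0.027 and Tkt -0.0079 (DESeq2). In the Camp gate on day 4, Taldo1 became -0.077, -0.083 and -0.046 with TMM, DESeq2 and the median, and Tkt -0.0025 (DESeq2). On day 5 there, Tkt became -0.21, -0.17 and -0.12 with TMM, DESeq2 and the median, and Idh1 -0.085 and -0.047 with TMM and DESeq2. In the Ccr7 gate on day 7, Taldo1 became -0.22, -0.12 and -0.072 with TMM, DESeq2 and the median. For the Marco against the Camp gate, Pgd became -0.071 and -0.027 with DESeq2 and the median. The cause was not tested.

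No paired analysis was possible because each group was 1 library, which also leaves no replicate to omit. Depth limits Me1 in control cells, where a culture held at most 45 UMIs.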
